A study of Mus musculus with 4 samples.

Results

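The genes described here are 39 genes of the unfolded protein response and of protein entry into the endoplasmic reticulum (ER), taken by name from the 31053 genes that the scRNA-Seq data list. All 39 names were found, and all 39 had at least 200 unique molecular identifiers (UMIs, each standing for 1 captured mRNA molecule) over the cells kept, as had 10457 of the 31053 genes. By role they were 9 chaperones and their partners, 7 lectin chaperones and disulfide isomerases, 7 genes of ER-associated degradation, 7 sensors and transcription factors of the stress response, and 9 genes of translocation, signal peptide cleavage, and antibody assembly. The cells were B cells purified from the spleen of WT mice and kept in culture with CpG B ODN 1668, a ligand of TLR9, for 3 days. The labels name 2 samples of Bregs-CpG, which received nothing further, and 2 samples of Bregs-TLR, to which LPS, PMA, and ionomycin were added for the last 5 hours, so that the cells of all 4 samples were exposed to CpG. The labels give neither age nor strain, and the study's methods list B6 as its WT strain and obtained the B cells by removing other cells.

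Secreted and membrane proteins enter the ER through the Sec61 channel, lose their signal peptide, and are folded by chaperones and isomerases, and chains that fail to fold are sent back to the cytosol for degradation. When unfolded chains build up, the sensors IRE1 (Ern1), PERK (Eif2ak3), and ATF6 switch on the unfolded protein response. In it, IRE1 splices the Xbp1 mRNA, ATF6 is cleaved to an active factor, and PERK slows translation and raises the ATF4 protein. In B cells this response is known for its role in plasma cells, which build a large ER to secrete antibody. Jchain encodes the joining chain of IgM and IgA polymers, and its mRNA is abundant in antibody-secreting cells.

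Barcodes ending in 5 to 8 name 4 libraries, and no label ties a library to a sample or to a condition. The 4 libraries are therefore treated as 1 pooled sample, each library's value is given, and no test between Bregs-CpG and Bregs-TLR was made. After the limits of at least 1000 genes and under 10% mitochondrial UMIs, 18534 cells remained, with 4196, 4714, 5621, and 4003 cells and medians of 8752, 8785, 10355, and 10077 UMIs per cell in libraries 5, 6, 7, and 8. Between libraries, 29 barcode sequences occurred in more than 1 library, which concerns 58 cells. The level of a gene is its UMI count divided by the sum of UMIs in the library or class of cells, times 1000000 (CPM). Intervals at 95% are exact Poisson or conditional intervals that cover counting error only and not the spread between cells, mice, or cultures.

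Cells with at least 5 Jchain UMIs (Jchain-high cells) numbered 145, or 0.782% of the cells, with 24, 39, 54, and 28 in libraries 5, 6, 7, and 8. Of the 18389 other cells, 18251 had no Jchain UMI. Close to the limit there were few cells, 6 with 3 or 4 Jchain UMIs and 4 with 5 or 6. Of the plasma cell markers, Prdm1 was 17.7-fold higher in Jchain-high cells and above 10-fold in every library. Irf4 was higher than in the other cells of the same library in libraries 5 and 6 only. Its ratios were 73.8, 48.9, 1.08, and 1.33 in libraries 5, 6, 7, and 8, with intervals that included 1 in libraries 7 and 8. These ratios also depend on the level in other cells. With the libraries combined, Irf4 was at 24.2 CPM in cells under 5 Jchain UMIs. It was at 93.6, 121, and 136 CPM in cells with 5 to 19, 20 to 99, and 100 or more Jchain UMIs. Tnfrsf17 had 5 UMIs in Jchain-high cells in all. Sdc1 had 11 UMIs in them, against 764 in other cells. With mitochondrial, ribosomal protein, and immunoglobulin genes left out of the total, the Sdc1 ratio was 1.55 (0.775 to 2.78). By library it was 21.3, 83.5, 0.882, and 0.408 in libraries 5, 6, 7, and 8, from 1, 5, 4, and 1 UMIs. The B cell markers Cd79a, Pax5, and Ms4a1 had ratios of 2.01, 0.511, and 0.515. All 5 genes of the B cell marker list were detected in both classes. Of the T cell, myeloid, NK, and erythroid marker lists, no list exceeded 3.20 CPM in Jchain-high cells or 2.49 CPM in other cells of any library. Jchain-high cells had 16.2% to 26.1% of their UMIs in immunoglobulin genes, among which Jchain is counted throughout, against 0.382% to 1.75% in other cells. They had 19.96% to 25.0% in ribosomal protein genes, against 31.4% to 35.4%. The 5 genes of the housekeeping list summed to 12126 to 13803 CPM in Jchain-high cells and 17180 to 21883 CPM in other cells. Their median UMIs per cell were 11278, 12627, 11463, and 10748, against 8738, 8777, 10351, and 10070 in the other cells of libraries 5, 6, 7, and 8.

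The 39 ER genes took up a larger part of the mRNA of Jchain-high cells than of other cells in every library. Together they made up 3.03, 2.85, 2.10, and 1.76% of the UMIs of Jchain-high cells and 0.559, 0.584, 0.648, and 0.617% of those of other cells in libraries 5, 6, 7, and 8, respectively. The lowest value in Jchain-high cells thus lay above the highest value in other cells. For a ratio over all libraries, the UMIs of Jchain-high cells were divided by those expected from the other cells of the same library, and this matched ratio was 3.89 (3.86 to 3.93) for the 39 genes together and 3.43 (3.40 to 3.47) without Mzb1. Single cells within a library varied widely, since the middle 80% of Jchain-high cells ran from 1.26% to 5.63% in library 5 and from 0.685% to 4.77% in library 8. Of the 145 Jchain-high cells, 93 had a share above the 99th percentile of the other cells of their library. The 21 Jchain-high cells with more UMIs than the 95th percentile of other cells, a depth at which droplets with 2 cells would be sought, had a lower ratio than the rest, because the ratio was 4.68 without them. The same 32 genes were called with and without these cells.

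A gene was called higher in Jchain-high cells if its matched ratio was at least 2, its interval lay above 1, and its ratio was above 1 in all 4 libraries. By these criteria 32 of the 39 ER genes were higher and none was lower, beside 3.39% of all features called higher and 6.75% called lower. The 7 genes not called were Canx, Derl2, Syvn1, Atf6, Atf4, Trib3, and Ssr1, and of these only Atf6 and Trib3 were not above 1 in every library. The median log2 ratio was 1.57 over the 39 genes and -0.34 over all features. When mitochondrial, ribosomal protein, and immunoglobulin genes were left out of the total, the median of all features moved to -0.09 and that of the 39 genes to 1.82, and 33 ER genes were called. The calls over all features then turned from 354 higher and 706 lower to 503 higher and 336 lower, so that statements on lower genes depend on this choice, whereas none of the 39 ER genes was called lower on either scale.

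**Figure D1:**
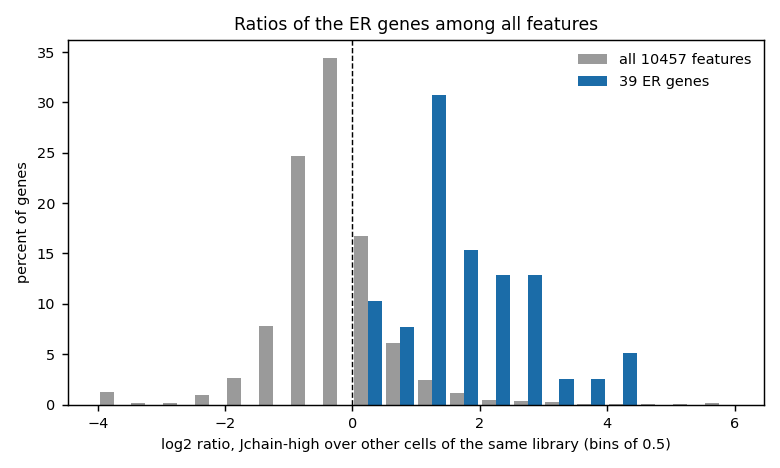
Distribution of log2 ratios between Jchain-high and other cells (x axis, bins of 0.5, the outermost bins also holding more extreme values) for all 10457 features (gray bars) and the 39 ER genes (blue bars), each as percent of its genes (y axis). Most features lie below 0, with a median of -0.34, whereas all 39 ER genes lie above 0, with a median of 1.57.

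**Figure D2:**
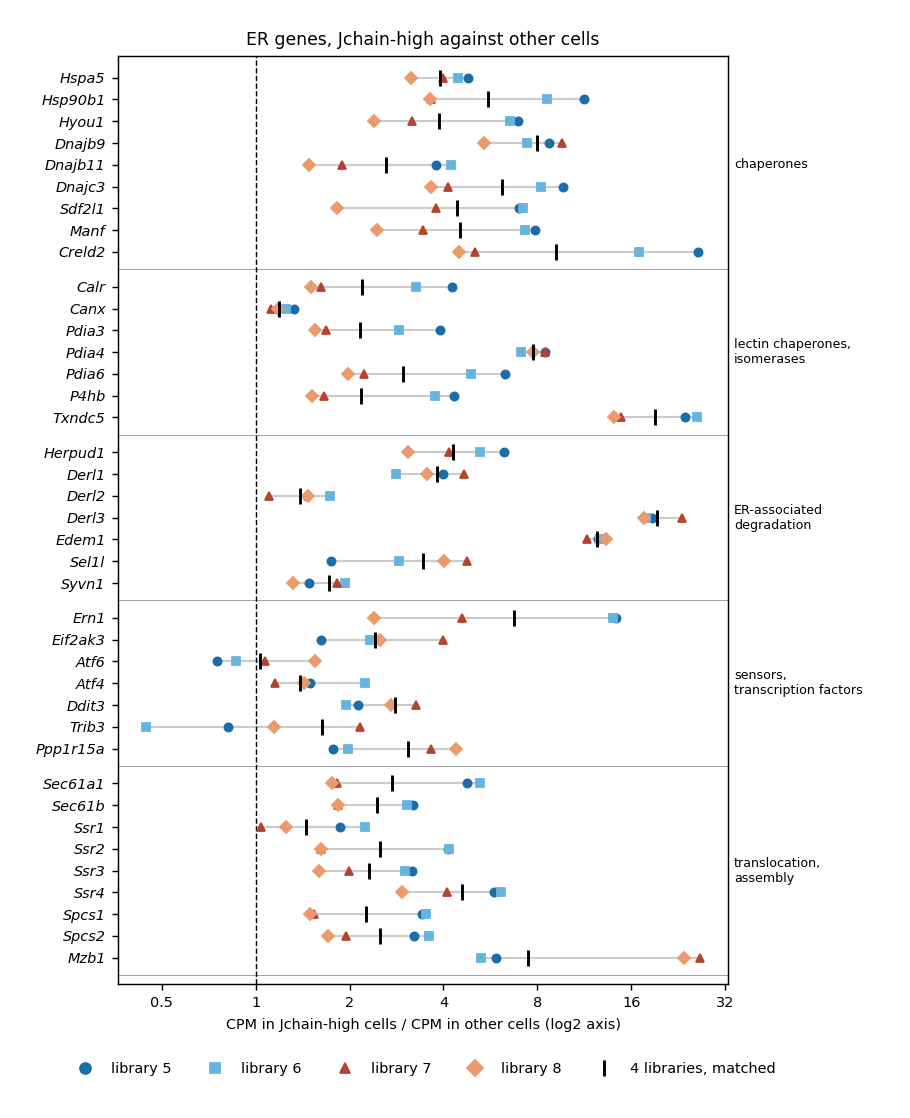
Ratio of CPM in Jchain-high cells to CPM in other cells for each ER gene (x axis, log2 scale) in libraries 5 to 8 (colored symbols) and over the 4 libraries (black bars), with genes grouped by role and a dashed line at 1. The black bars of Derl3 (19.3) and Txndc5 (19.04) lie farthest to the right, and Atf6 and Trib3 are the only genes with symbols to the left of the line.

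Promoter windows help to see which of these genes carry the ER stress response element (ERSE), to which ATF6 and XBP1 are known to bind. It was searched on both strands as CCAAT, 9 bases of any kind, and CCACG, in windows of 250 bases before to 50 bases after the start site from RefSeq (GRCm38.p6), which held 32 of the 39 genes. This motif was found in 9 of the 32 genes (9 of their 35 windows), as 2 copies in Hsp90b1, and in 0.119% of all 32851 windows. Because the 39 genes were taken by name as genes of the unfolded protein response and ER entry, the share of all windows is given for scale only. Of the 9 genes, Calr, Creld2, Derl3, Dnajc3, Hsp90b1, Hspa5, and Pdia6 were called higher in Jchain-high cells, and Canx and Syvn1 were not. Over all 39 ER genes, which include these 9 and the 7 without a window, 32 were called higher. With most genes called, 9 genes are too few to show a difference, and none was tested. The shorter element ERSE-II was found in Dnajb11 and Herpud1 and in 0.0365% of all windows, TGACGTG in Hspa5 and Txndc5 and in 2.01% of all windows, and TGATGNAAT, the form of the sites of ATF4 with CEBP partners, in none of the genes and in 0.965% of all windows. A match of letters does not show that a factor was bound.

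Whole windows are shown for 3 chaperone genes that were called higher and for Canx, the gene with the motif and the lowest ratio, and the stretch around the motif for 4 further genes. Each is written on the strand of its gene, from 5′ to 3′, with the CCAAT and CCACG ends of the motif in capitals (CGTGG and ATTGG where it lies on the opposite strand).
Hspa5 (chr2:34771840-34772139, plus strand): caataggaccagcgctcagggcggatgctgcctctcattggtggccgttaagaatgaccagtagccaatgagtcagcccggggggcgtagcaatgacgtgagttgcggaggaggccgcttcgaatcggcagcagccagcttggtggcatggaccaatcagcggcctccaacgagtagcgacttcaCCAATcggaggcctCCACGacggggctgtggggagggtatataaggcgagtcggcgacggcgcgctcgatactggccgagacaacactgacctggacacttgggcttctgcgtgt
Hsp90b1 (chr10:86705395-86705694, minus strand): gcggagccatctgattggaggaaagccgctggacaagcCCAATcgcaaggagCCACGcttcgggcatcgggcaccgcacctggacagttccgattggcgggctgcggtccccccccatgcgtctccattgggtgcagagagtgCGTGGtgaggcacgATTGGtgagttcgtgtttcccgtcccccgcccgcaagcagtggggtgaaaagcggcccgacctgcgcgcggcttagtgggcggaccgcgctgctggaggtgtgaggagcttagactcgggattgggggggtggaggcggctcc
Creld2 (chr15:88819396-88819695, plus strand): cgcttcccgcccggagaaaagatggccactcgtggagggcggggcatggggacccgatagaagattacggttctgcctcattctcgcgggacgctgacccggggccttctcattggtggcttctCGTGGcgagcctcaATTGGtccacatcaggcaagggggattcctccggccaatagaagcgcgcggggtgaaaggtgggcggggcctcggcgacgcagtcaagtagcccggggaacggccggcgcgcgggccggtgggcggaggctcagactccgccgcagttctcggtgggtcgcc
Canx (chr11:50325624-50325923, minus strand): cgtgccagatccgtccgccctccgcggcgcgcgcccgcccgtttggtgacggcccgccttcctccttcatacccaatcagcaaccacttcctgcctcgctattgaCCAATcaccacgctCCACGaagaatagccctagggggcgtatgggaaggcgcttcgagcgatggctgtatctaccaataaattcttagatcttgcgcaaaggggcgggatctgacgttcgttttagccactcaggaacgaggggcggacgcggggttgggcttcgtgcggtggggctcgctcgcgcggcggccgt
Derl3 (chr10:75893222-75893280, plus strand): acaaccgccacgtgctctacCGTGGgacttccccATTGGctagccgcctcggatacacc
Dnajc3 (chr14:118937807-118937865, plus strand): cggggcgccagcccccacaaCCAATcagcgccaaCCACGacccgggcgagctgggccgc
Pdia6 (chr12:17266471-17266529, plus strand): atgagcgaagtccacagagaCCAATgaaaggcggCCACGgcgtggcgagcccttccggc
Calr (chr8:84847055-84847113, minus strand): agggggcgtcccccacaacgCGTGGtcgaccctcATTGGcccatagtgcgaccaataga

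All 9 chaperones and their partners were called higher in Jchain-high cells, with a median log2 ratio of 2.18. Hspa5, which encodes BiP, the main chaperone of the ER and a brake on all 3 sensors, was at 1732, 1753, 3477, and 2519.9 CPM in Jchain-high cells and at 362, 393, 873, and 803 CPM in other cells of libraries 5, 6, 7, and 8. Every level in Jchain-high cells exceeded every level in other cells, and the matched ratio was 3.91 (3.81 to 4.02). Hsp90b1, the HSP90 chaperone of the ER, was at 3862, 3177, 2074, and 1977 CPM against 342, 369, 570.4, and 544 CPM, with a ratio of 5.54 (5.40 to 5.69). Its order of libraries turned over, because libraries 5 and 6 had the higher levels in Jchain-high cells and the lower levels in other cells. Creld2, an ER protein with isomerase activity, was at 484, 374, 194, and 169 CPM against 18.5, 22.1, 38.3, and 37.8 CPM and had the highest ratio of the chaperone group, 9.19 (8.46 to 9.96). Its 4 ratios differed widely, at 26.1, 16.9, 5.05, and 4.47 in libraries 5, 6, 7, and 8, and 40.2% of its UMIs in Jchain-high cells came from 10 cells.

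The co-chaperones that bring clients to BiP or release them from it were higher too. Dnajb9 was at 176, 135, 81.7, and 45.1 CPM in Jchain-high and 20.3, 18.1, 8.51, and 8.36 CPM in other cells (ratio 7.96, 6.94 to 9.10), and its levels in libraries 5 and 6 were above those in libraries 7 and 8 in both classes of cells. Dnajc3, which also inhibits PERK, was at 576, 515, 227, and 187 CPM against 59.7, 62.7, 54.7, and 51.5 CPM (ratio 6.16, 5.73 to 6.62). In other cells Dnajc3 hardly differed between libraries, and in Jchain-high cells the highest library was 3.08 times the lowest. Dnajb11 was at 320.2, 380.3, 213, and 153 CPM against 84.7, 90.2, 113, and 104 CPM (ratio 2.63, 2.41 to 2.85), so that even the lowest Jchain-high level was above all levels of other cells. Sdf2l1, a partner of Dnajb11, was at 391, 426, 356, and 151 CPM against 55.8, 59.1, 94.2, and 82.9 CPM (ratio 4.43, 4.11 to 4.77). Manf, a BiP partner that can be secreted, was at 1592, 1565, 1139.8, and 771 CPM against 203, 214, 331, and 314 CPM (ratio 4.53, 4.36 to 4.71). Both were lowest in the Jchain-high cells of library 8. Hyou1, an exchange factor for BiP, was at 70.5, 63.9, 72.5, and 47.3 CPM against 10.1, 9.80, 22.9, and 19.8 CPM, with a ratio of 3.87 (3.24 to 4.57) from 136 UMIs in Jchain-high cells.

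Among the lectin chaperones and disulfide isomerases, 6 of 7 genes were called higher, with a median log2 ratio of 1.13. Txndc5, a thioredoxin-like isomerase abundant in plasma cells, had nearly equal levels in other cells of all libraries (26.5, 26.8, 29.04, and 26.001 CPM) and was at 631, 698, 429.6, and 365 CPM in Jchain-high cells. This ratio of 19.04 (17.9 to 20.2) was at rank 30 of the 10457 features. Of the 145 Jchain-high cells, 91 had a Txndc5 level above the 99th percentile of the other cells of their library. Pdia4 was at 986, 922, 423, and 347 CPM against 117, 129.9, 49.9, and 44.8 CPM, and although its level in both classes was higher in libraries 5 and 6, its 4 ratios were close, at 8.45, 7.10, 8.48, and 7.75. Pdia6 was at 1348, 1104, 1096, and 939.9 CPM against 213, 225, 492, and 475 CPM (ratio 2.96, 2.84 to 3.09). In Jchain-high cells the 4 Pdia6 levels were within 1.43 times of each other, whereas in other cells libraries 7 and 8 were above libraries 5 and 6.

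Calr, P4hb, and Pdia3 lay just above the limit of 2, and the call of all 3 was lost when library 5 or library 6 was left out. Calr, which encodes calreticulin, a lectin that holds glycoproteins while they fold, was at 1799.7, 1447, 1233, and 1125 CPM against 422, 443, 761, and 749.9 CPM (ratio 2.19, 2.11 to 2.27). P4hb, the classical protein disulfide isomerase, was at 173, 153, 159, and 139.7 CPM against 39.9, 40.7, 96.3, and 92.4 CPM (ratio 2.18, 1.95 to 2.43). The Jchain-high level of P4hb was nearly the same in the 4 libraries, and the ratio was smaller in libraries 7 and 8, where other cells had more. Pdia3, the isomerase that works with both lectins, was at 682, 537, 485, and 401 CPM against 174, 186, 289, and 259 CPM (ratio 2.16, 2.03 to 2.29). Canx, the membrane-bound lectin calnexin, was at 160.1, 159.8, 219, and 219 CPM against 121, 128, 195, and 185 CPM, and its ratio of 1.19 (1.07 to 1.31) was above 1 in every library but far from 2. None of the 145 Jchain-high cells had a Canx level above the 99th percentile of the other cells of its library.

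Of the genes of ER-associated degradation, 5 of 7 were called higher, with a median log2 ratio of 1.93. Derl3, a derlin of the channel through which unfolded chains leave the ER, was at 343, 326, 211, and 149 CPM in Jchain-high cells and 18.3, 18.3, 9.08, and 8.47 CPM in other cells, and its ratio of 19.3 (17.7 to 21.1) was the highest of the 39 genes. Its relatives differed from it, since Derl1 was at 259, 188, 329, and 243 CPM against 65.1, 66.9, 70.5, and 68.96 CPM (ratio 3.82, 3.51 to 4.15) and Derl2 at 73.7, 92.5, 69.8, and 90.2 CPM against 50.5, 53.6, 63.4, and 61.3 CPM (ratio 1.39, 1.19 to 1.61). The intervals of the 3 derlins did not overlap, but they leave out the spread between cells. Of the Derl3 UMIs in Jchain-high cells, 37.4% came from 10 cells. Edem1, which marks misfolded glycoproteins for removal, was at 329.8, 339.9, 182, and 214 CPM against 26.3, 26.7, 15.7, and 16.2 CPM. Its 4 ratios, 12.5, 12.7, 11.6, and 13.2, lay close together around a matched ratio of 12.5 (11.4 to 13.6).

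Herpud1, a scaffold of the ubiquitin ligase complex of the ER membrane, was at 452, 404, 599.5, and 419 CPM against 71.95, 77.2, 144, and 136 CPM (ratio 4.29, 4.03 to 4.57). Sel1l, the adaptor of this ligase, was at 102, 180.0, 195, and 160.0 CPM against 58.7, 62.3, 41.1, and 39.7 CPM (ratio 3.44, 3.09 to 3.81), and here the ratio was lowest in library 5. Syvn1, the ligase itself, was at 67.2, 87.5, 43.5, and 31.6 CPM against 45.4, 45.1, 23.8, and 23.9 CPM, and its ratio of 1.72 (1.43 to 2.06) fell short of 2. Within this complex the scaffold and the adaptor passed the limit and the ligase did not, although the ligase passed it when mitochondrial, ribosomal protein, and immunoglobulin genes were left out of the total.

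Of the sensors and transcription factors of the response, 4 of 7 genes were called higher, with a median log2 ratio of 1.28. As a group they made up 0.0378, 0.0468, 0.0784, and 0.0780% of UMIs in Jchain-high cells and 0.0301, 0.0303, 0.0517, and 0.0465% in other cells, and the matched ratio of this sum was 1.53 (1.45 to 1.62), against 4.62 (4.55 to 4.69) for the chaperones. This sum is weighted toward Atf4 and Atf6, which have low ratios. Ern1, which encodes the sensor IRE1, was rare, with 22 UMIs in Jchain-high cells. It was at 16.01, 13.5, 9.22, and 4.51 CPM against 1.12, 0.960, 2.004, and 1.88 CPM (ratio 6.72, 4.21 to 10.2), and in library 8 it rested on 2 UMIs, with a ratio of 2.40 (0.286 to 8.94). Eif2ak3, the sensor PERK, was at 25.6, 38.7, 15.8, and 9.02 CPM against 15.8, 16.6, 3.96, and 3.60 CPM, with a ratio of 2.42 (1.78 to 3.22) from 47 UMIs. In libraries 5 and 8 the interval of its ratio included 1. Atf6 was at 109, 129.6, 123, and 158 CPM against 145, 150.1, 114, and 102 CPM, with a ratio of 1.03 (0.911 to 1.16) that was below 1 in libraries 5 and 6 and above 1 in libraries 7 and 8.

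The genes downstream of PERK had ratios of different size. Ddit3, which encodes the transcription factor CHOP, was at 60.8, 53.8, 196, and 142 CPM against 28.7, 27.6, 60.1, and 52.3 CPM (ratio 2.79, 2.47 to 3.15). Ppp1r15a, the phosphatase subunit that ends the PERK signal, was at 22.4, 23.6, 48.8, and 54.1 CPM against 12.6, 11.9, 13.3, and 12.3 CPM (ratio 3.08, 2.45 to 3.82). For both genes the Jchain-high levels were higher in libraries 7 and 8 than in libraries 5 and 6. Atf4 was at 141, 207, 350.5, and 392 CPM against 94.2, 92.3, 305, and 275 CPM, and its ratio was only 1.39 (1.28 to 1.501), with the levels of the classes overlapping across libraries. Trib3, a pseudokinase whose gene is a target of ATF4 and CHOP, had 1 UMI each in the Jchain-high cells of libraries 5 and 6, with ratios of 0.815 (0.0205 to 4.60) and 0.445 (0.0112 to 2.51). In libraries 7 and 8 it was at 40.8 and 20.3 CPM against 18.9 and 17.8 CPM, and the matched ratio of 1.63 (1.18 to 2.21) was not called.

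Translocation, signal peptide cleavage, and antibody assembly had 8 of 9 genes called higher, with a median log2 ratio of 1.32. Mzb1, a co-chaperone of B cells that helps to assemble IgM, was at 8243, 7765, 3148, and 3041 CPM in Jchain-high cells and at 1394, 1475, 118, and 128 CPM in other cells. The level in other cells was far lower in libraries 7 and 8 than in libraries 5 and 6, and every level in Jchain-high cells exceeded every level in other cells. The matched ratio was 7.49 (7.35 to 7.63), and the 4 ratios were 5.91, 5.26, 26.6, and 23.7. Of the UMIs of the 39 genes, Mzb1 made up 27.2%, 27.2%, 15.02%, and 17.3% in Jchain-high cells and 24.9%, 25.3%, 1.82%, and 2.08% in other cells of libraries 5, 6, 7, and 8.

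The channel itself, its associated complex, and the signal peptidase had lower ratios than Mzb1. Sec61a1, the pore of the channel, was at 134, 156, 101, and 99.2 CPM against 28.2, 29.8, 55.6, and 56.4 CPM (ratio 2.73, 2.41 to 3.09). Sec61b, a small subunit, was at 1374, 1287, 634, and 649 CPM against 431, 423, 344, and 353 CPM (ratio 2.44, 2.34 to 2.55). Both had their higher Jchain-high levels in libraries 5 and 6, and for Sec61a1 the other cells had the opposite order. Of the 4 subunits of the translocon-associated complex, Ssr4 stood out, at 1937, 2058, 1672, and 1195 CPM against 333, 336, 408, and 404 CPM and a ratio of 4.58 (4.43 to 4.73). Ssr2 was at 307, 308, 175, and 160.0 CPM against 74.4, 73.9, 108, and 99.1 CPM (ratio 2.50, 2.28 to 2.73), and Ssr3 was at 179, 173, 145, and 110.4 CPM against 56.7, 57.7, 72.997, and 69.2 CPM (ratio 2.30, 2.06 to 2.57). Ssr1 was at 86.5, 109, 77.7, and 85.7 CPM against 46.5, 48.7, 74.9, and 68.5 CPM and, at 1.45 (1.25 to 1.67), was not called. The subunits of this complex thus had unequal ratios. The interval of Ssr4 lay above those of the other subunits, but these intervals leave out the spread between cells and libraries.

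Signal peptidase removes the signal peptide as the chain enters the ER. Spcs1 was at 359, 372, 209.5, and 192 CPM against 105, 106, 136, and 128 CPM (ratio 2.25, 2.07 to 2.45), a call that was lost without library 6. Spcs2 was at 701, 798, 503, and 426 CPM against 218, 221, 258, and 249.5 CPM (ratio 2.50, 2.36 to 2.64). In each library both genes were higher in Jchain-high cells, by more in libraries 5 and 6 than in libraries 7 and 8.

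Of the other genes of these pathways, 81 had enough UMIs, and 33 of them were called higher and 1 lower, with a median log2 ratio of 0.78. Among Xbp1 and further ER transcription factors, 3 of 9 genes were higher and 1 was lower. Xbp1, the target of IRE1 and a factor required for plasma cells to secrete, was at 1367, 1418, 652, and 410.2 CPM in Jchain-high cells and 75.7, 76.3, 105, and 104 CPM in other cells (ratio 9.98, 9.54 to 10.4). The 3' counts do not tell its spliced from its unspliced mRNA. Creb3l2, a membrane-bound factor activated like ATF6, had a ratio of 16.8 (12.7 to 21.8), and Atf5, a factor of the integrated stress response, of 14.2 (12.7 to 15.8). Atf3 was lower, at 0.366 (0.273 to 0.482).

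In the remaining lists the calls were 4 of 15 for the translocon and signal peptidase, 3 of 10 for the oligosaccharyltransferase, 5 of 9 for oxidative folding, 6 of 10 for ER-associated degradation, 5 of 15 for transport from the ER to the Golgi, and 7 of 13 for the integrated stress response and amino acid response, all higher. Among those called were the signal peptidase genes Spcs3 (4.16) and Sec11c (3.68), the glycosylation gene Ddost (3.13), the oxidase Ero1lb (4.67), the peroxidase Prdx4 (4.48), the mannosidase-like Edem2 (7.68), the cargo receptor Lman1 (3.29), and the amino acid transporter subunit Slc3a2 (5.23), with the matched ratio in parentheses. The other called genes were Sec63 (2.08), Srprb (2.14), Rpn1 (2.06), and Ostc (2.05) of translocation and glycosylation. Of oxidative folding they were Ero1l (2.17), Txndc11 (6.12), and Ppib (2.53). Of degradation they were Os9 (3.51), Erlec1 (3.02), Edem3 (3.63), Ube2j1 (2.03), and Selenos (2.97). Of the coats and receptors that carry cargo out of the ER they were Sec24a (3.63), Sec24d (2.01), Mcfd2 (2.57), and Surf4 (2.35). Of the stress and amino acid response they were Asns (2.31), Chac1 (2.02), Ddit4 (2.60), Slc7a5 (2.44), Nupr1 (6.22), and Cebpb (3.004). Some of these calls rest on few counts, such as Sec24d on 35 and Edem3 on 34 UMIs in Jchain-high cells. A single ratio can also hide unlike libraries. With mitochondrial, ribosomal protein, and immunoglobulin genes left out of the total, Ero1lb had ratios of 3.62, 3.70, 23.6, and 16.7 in libraries 5, 6, 7, and 8. Vcp, the ATPase that pulls chains from the ER membrane, had a ratio of 1.08 (0.985 to 1.19) and was not called.

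Over bins of Jchain UMIs, most of the ER genes rose with Jchain when the libraries were combined, and fewer did so in every step within single libraries. Cells were divided into 35 with 5 to 19, 67 with 20 to 99, and 43 with 100 or more Jchain UMIs, and the part of the 39 genes in all UMIs was 0.606% in the cells under 5 and 1.84%, 2.25%, and 2.91% in the 3 bins. The median UMIs per cell in the 3 bins were 9127, 11978, and 14059. Immunoglobulin genes, Jchain included, took 14.3%, 19.6%, and 33.1% of UMIs, and Jchain alone was at 1022, 3534, and 11385 CPM. A bin of higher Jchain thus also had deeper cells with a smaller remainder for other genes. The part of depth in this order was not tested. When cells were divided by Jchain CPM into 3 sets of like size, 23 genes rose with each step, beside 3.64% of all features. The ratio to cells under 5 rose with each step for 27 of the 39 genes, beside 3.13% of all features. The first step asks only for a ratio above 1. Over all Jchain-high cells, all 39 genes had such a ratio, against 2905 of the 10457 features. Part of this gap therefore repeats the comparison of Jchain-high with other cells. Txndc5 had ratios of 9.75, 16.2, and 28.97, Mzb1 of 4.34, 7.37, and 9.66, Ssr4 of 2.84, 4.12, and 6.35, and Creld2 of 5.82, 8.43, and 12.4 in the 3 bins.

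Within single libraries, 3 steps between bins of Jchain-high cells had at least 10 cells on both sides, namely from 20 to 99 to 100 or more in libraries 6 and 7 and from 5 to 19 to 20 to 99 in library 8. Of the 39 genes, 10 rose in all 3 steps, beside 6.24% of all features, 19 rose in 2, 9 in 1, and 1 in none. The 10 were P4hb, Txndc5, Edem1, Sec61b, Ssr2, Ssr3, Ssr4, Spcs1, Spcs2, and Mzb1. None of them is in the group of chaperones and their partners or in that of sensors and transcription factors. Txndc5 went from 518 to 1090.0 CPM in library 6, from 351 to 599 CPM in library 7, and from 146 to 477 CPM in library 8. Creld2 and Hsp90b1 rose in libraries 6 and 7 but went the other way in library 8, from 173 to 65.1 CPM and from 3086 to 993 CPM. The bins differ in their mix of libraries, and these steps were examined after the values over all libraries were seen.

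With the libraries combined, 12 genes did not rise with each step. Hspa5 had ratios of 4.16, 3.66, and 4.16, Derl3 of 16.9, 15.1, and 27.1, and Ddit3 of 4.38, 2.14, and 2.88. Of the 7 sensors and transcription factors, only Trib3 rose with each step (1.05, 1.31, and 2.52), whereas 7 of the 9 chaperones did. The Trib3 ratios rest on 5, 17, and 20 UMIs, and their intervals overlapped (0.342 to 2.46, 0.761 to 2.09, and 1.54 to 3.89). A rise was counted from the ratios without their intervals, so small steps such as those of Derl2 (1.30, 1.33, and 1.54) also counted.

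**Figure D3:**
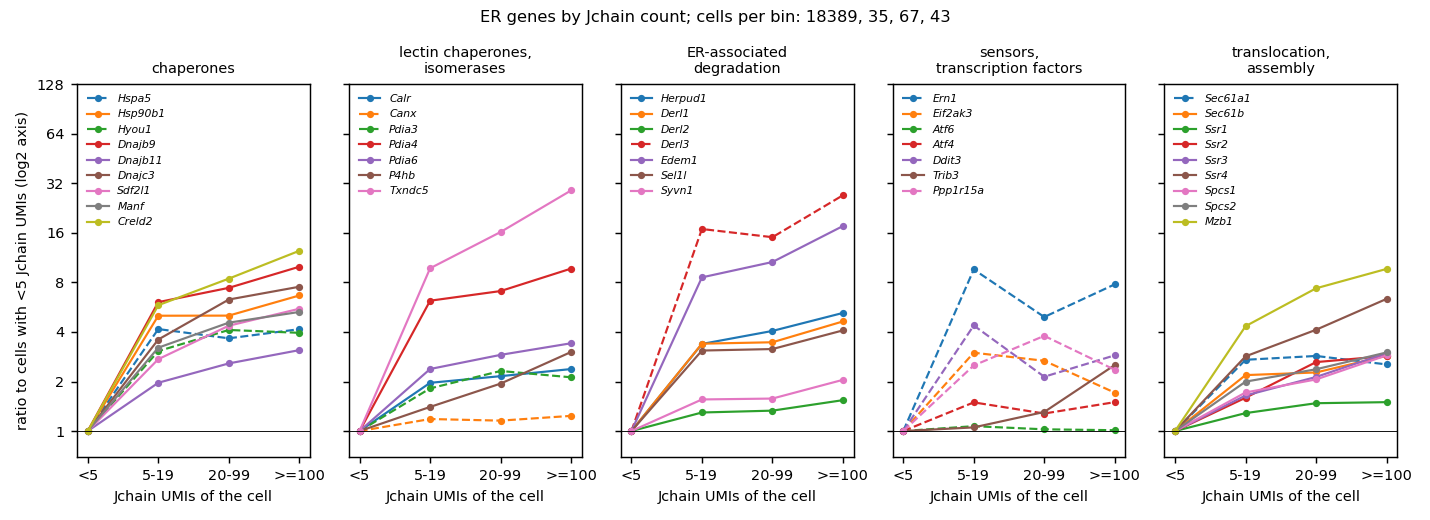
Matched ratio of each ER gene (y axis, log2 scale) to cells with under 5 Jchain UMIs, over bins of Jchain UMIs per cell (x axis), with 1 panel per role and cell numbers above. Solid lines mark the 27 genes that rise with each step, such as Txndc5, and dashed lines those that do not, such as Hspa5 and Ern1.

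In all kept cells, 13 of the 39 ER genes differed at least 2-fold between the highest and the lowest library, which is not above the 33.7% of all features that did. The largest range was that of Mzb1, at 1441, 1548, 154, and 157 CPM in libraries 5, 6, 7, and 8. Trib3 was at 3.92, 3.76, 19.2, and 17.8 CPM (range 5.10-fold) and Atf4 at 94.5, 93.6, 305, and 277 CPM (3.26-fold), both of them higher in libraries 7 and 8. Eif2ak3, whose protein acts upstream of the ATF4 protein, had the opposite order, at 15.9, 16.9, 4.10, and 3.66 CPM (4.62-fold). These mRNA levels do not show the activity of either protein. Ddit3 was at 28.9, 27.9, 61.7, and 53.1 CPM, while Ppp1r15a was nearly level at 12.7, 12.1, 13.7, and 12.7 CPM.

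Chaperones and isomerases also had both orders. Of the genes with a 2-fold range, those higher in libraries 7 and 8 were Hspa5 (372, 408, 904, and 819.5 CPM), Pdia6 (221, 235, 499, and 479.6 CPM), P4hb (40.9, 41.97, 97.05, and 92.8 CPM), Hyou1 (10.5, 10.4, 23.5, and 20.1 CPM), and Herpud1 (74.6, 80.9, 149, and 139 CPM). Those higher in libraries 5 and 6 were Pdia4 (123, 139, 54.4, and 47.7 CPM), Dnajb9 (21.3, 19.4, 9.38, and 8.71 CPM), and Derl3 (20.6, 21.8, 11.5, and 9.83 CPM). The levels of Txndc5 (30.7, 34.5, 33.8, and 29.3 CPM), Spcs2 (221, 228, 261, and 251 CPM), and Derl1 (66.5, 68.3, 73.6, and 70.7 CPM) stayed within 1.18 times between libraries. The B cell marker list also differed between libraries, at a summed level of 7053, 7321, 1445, and 1448 CPM in the cells that were not Jchain-high, and its part in the ER gene levels was not tested. The 145 Jchain-high cells add to these levels, and without them 16 genes were at least 2-fold apart, beside 33.7% of all features.

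The library in which a gene was highest was not the same in the 2 classes of cells for 27 of the 39 genes. In other cells, libraries 5, 6, 7, and 8 had the highest level of 4, 7, 27, and 1 genes, and in Jchain-high cells of 15, 13, 8, and 3 genes. Library 7 thus led in other cells, and libraries 5 and 6 in Jchain-high cells. These orders were not counted over all features, so whether they are particular to the ER genes was not examined. The median log2 ratio of the 39 genes was 2.09, 2.06, 1.71, and 1.26 in libraries 5, 6, 7, and 8.

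**Figure D4:**
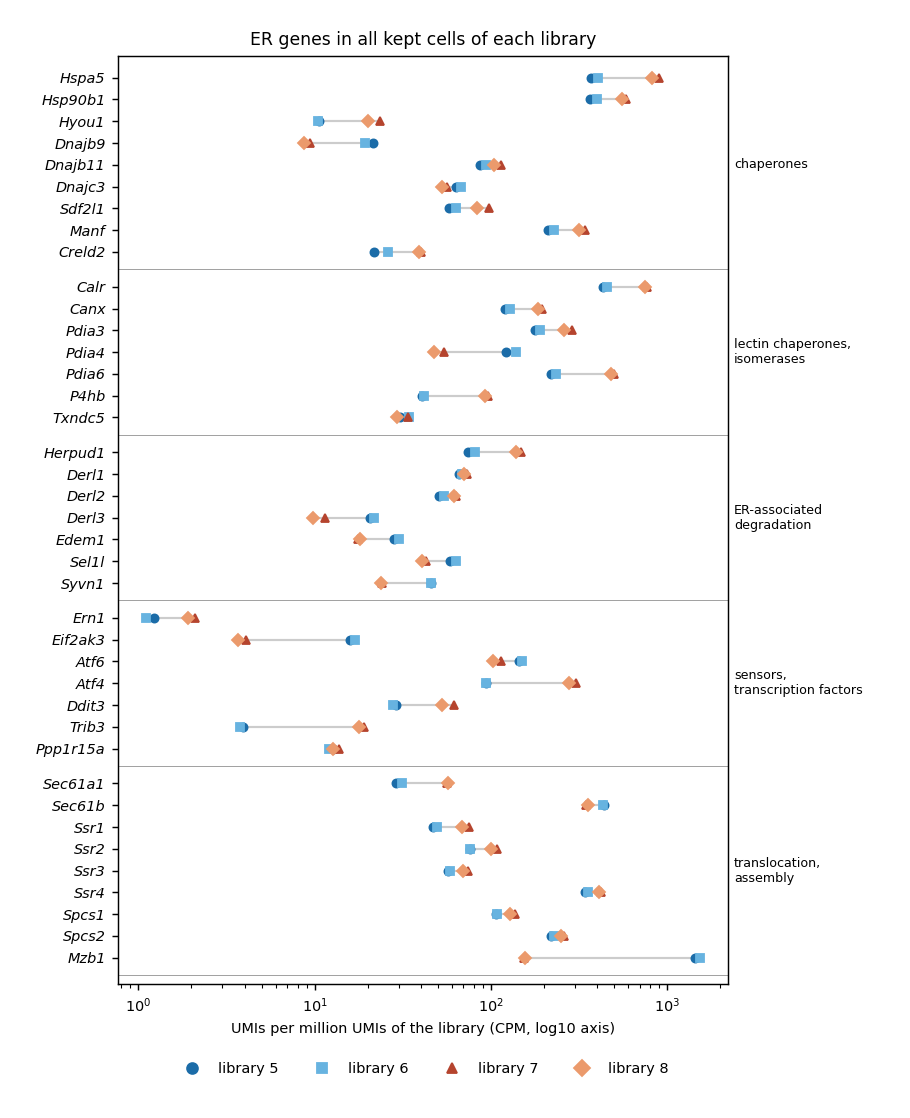
Level of each ER gene in all kept cells (x axis, CPM, log10 scale) in libraries 5 to 8 (colored symbols), with genes grouped by role. Of the 39 genes, 13 span at least 2-fold, and Mzb1, Trib3, Eif2ak3, and Atf4 have the widest ranges, of 10.0, 5.10, 4.62, and 3.26 times.

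Division was examined as a second state of the cells in which ER genes might differ. Among the 18389 cells that were not Jchain-high, 2293 (12.5%) had at least 2 UMIs of the proliferation genes Mki67 and Top2a together, with 442, 558, 740, and 553 in libraries 5, 6, 7, and 8. None of the 39 ER genes was called higher or lower in these cells over the 4 libraries, beside 4.16% of all features called higher and 0.0767% called lower. Of the ER degradation genes, Edem1 had a ratio of 1.53 (1.44 to 1.62) and Derl3 of 1.498 (1.39 to 1.61), and most others were close to 1, such as Hspa5 at 0.895 (0.883 to 0.907), Sec61b at 0.976 (0.961 to 0.992), and Txndc5 at 1.002 (0.944 to 1.06). Of the other pathway genes, the peroxidase Prdx4 was called, at 2.23 (2.16 to 2.31).

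For the stress factors Trib3, Ddit3, and Atf4, the ratios in cycling cells were above 1.5 in libraries 5 and 6 and close to or below 1 in libraries 7 and 8. Trib3 had ratios of 7.92, 15.8, 0.919, and 1.10 in libraries 5, 6, 7, and 8, Ddit3 of 2.35, 1.98, 0.814, and 0.815, and Atf4 of 2.002, 1.83, 0.981, and 0.998. These ratios go with different base levels, since Trib3 in the cells that were not cycling was at 1.67, 0.919, 19.2, and 17.4 CPM. The Trib3 UMIs in cycling cells of libraries 5 and 6 (115 and 156) came from 84 and 94 cells, and the 10 cells with the most held 24.3% and 23.7% of them. When each library was taken alone, a choice made after these values were seen, 3 ER genes were called in library 5 (Trib3, Ddit3, and Atf4), 1 in library 6 (Trib3), and none in libraries 7 and 8, beside 6.44%, 6.46%, 3.98%, and 4.4% of all features.

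Many genes of the integrated stress response and amino acid response are targets of ATF4. Of the 13 on this list, 9 were called higher in cycling cells of library 5, 10 in library 6, and none in libraries 7 and 8. Asns, the asparagine synthetase, had ratios of 6.82, 9.32, 1.26, and 1.19, Chac1, which degrades glutathione, of 8.995, 14.3, 0.834, and 0.930, and Psat1, an enzyme of serine synthesis, of 4.77, 5.35, 1.16, and 1.25. Their levels in the cells of libraries 7 and 8 that were not cycling, 112 and 112 CPM for Asns, were above those in libraries 5 and 6, 8.23 and 6.68 CPM. The difference between libraries was not tested, because no label says which libraries are replicates. Cycling cells had medians of 16550, 16885, 14555, and 14639 UMIs, against 8399, 8410, 9948, and 9678 in the cells compared with them, and the part of this depth in the ratios was examined only by thinning cells to 5000 UMIs, after which again no ER gene was called over the 4 libraries.

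**Figure D5:**
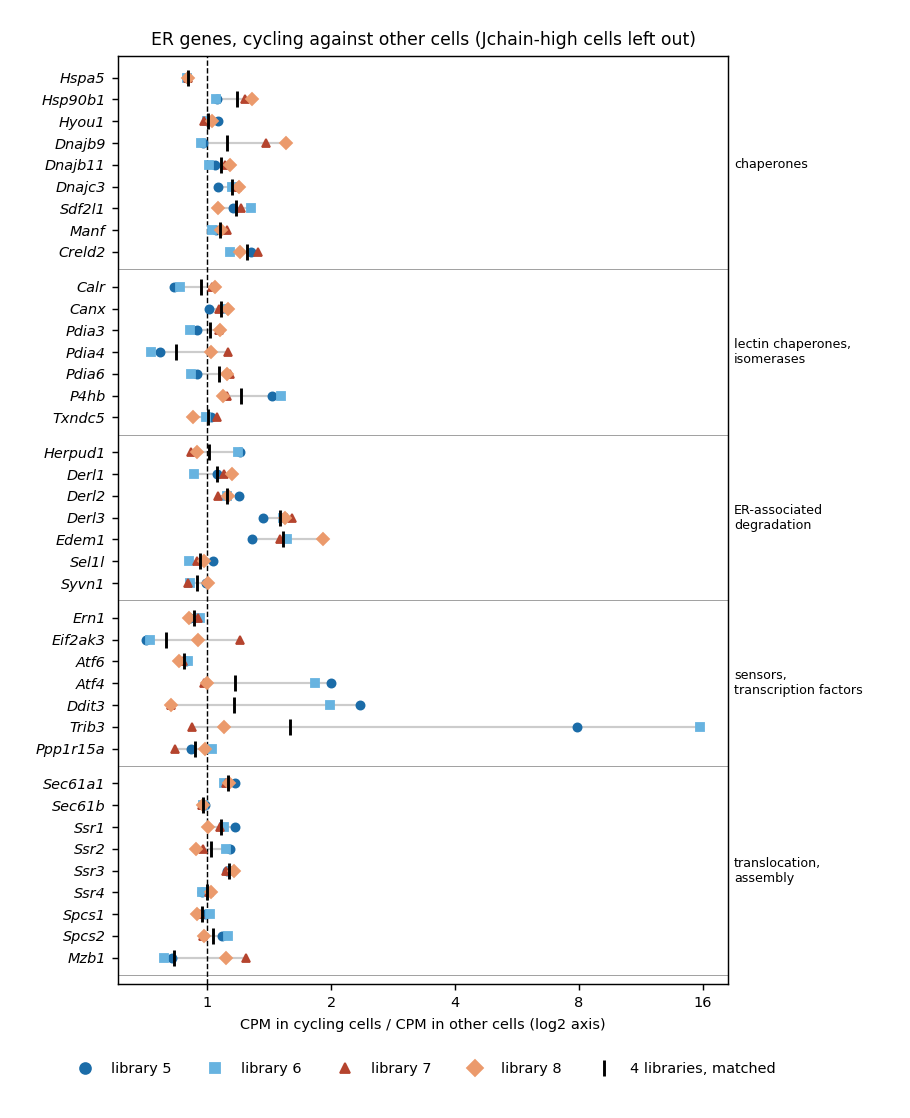
Ratio of CPM in cycling cells to CPM in the other cells that were not Jchain-high for each ER gene (x axis, log2 scale) in libraries 5 to 8 (colored symbols) and over the 4 libraries (black bars), with genes grouped by role. Most genes lie near the dashed line at 1, and Trib3, Ddit3, and Atf4 lie farthest to the right of it in libraries 5 and 6.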

How the data were processed

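The deposited values are counts of UMIs per gene and cell, made by the authors with bcl2fastq and CellRanger (version 3.1.0) on mm10 with Ensembl 93 genes from Chromium Single Cell 3' v3 libraries, and combined and normalized between wells with CellRanger aggr, per the study's methods. The values are whole numbers, and how the wells were normalized is not given in the sources used here. The matrix has 35989 columns, and the 19920 barcodes were placed on the last columns, where the shift in mean expression at the 4 library starts was at percentiles 99.3, 58.6, 100, and 91.7 of that at all columns, against 44.5 to 86.4 for barcodes on the first columns. The other 16069 columns were not used here. Of the barcodes, 559 fell below the gene limit and 1110 above the mitochondrial limit.

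UMIs were summed per library and class of cells, and the ratios, intervals, and rules described above were computed in Python (version 3.11.15) with NumPy (2.4.6), SciPy (1.17.1), and pandas (2.3.3), and tested on simulated data. Scaling factors for 1 alternative came from edgeR (4.0.16). No p-value was computed, since the libraries could not be tied to samples. No doublet caller was run. The genes and lists were chosen with earlier results of these data known. All 39 genes are named, and the other pathway genes are named where they were called or, for Xbp1, in any case, while Vcp, Psat1, Phgdh, and the library values of the cycling cells were chosen after their values were seen. Of 85 other pathway genes, 84 were found. Alternatives were other filters, limits, totals, and weights and leaving out each library.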

Additional observations from a re-analysis of the deposited data

How the results depend on the processing

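No paired analysis was possible because the barcodes name no sample and no replicate. The count of 32 ER genes higher in Jchain-high cells was between 28 and 33 under every alternative and none was lower under any, and the same 32 genes were called with the other total, at a limit of 20 Jchain UMIs, in thinned cells, and without the deepest cells. With libraries left out in turn it was 28 to 32. The share of all features called higher was 2.81% to 5.07% over the alternatives. The part of the 39 genes in all UMIs, 3.89 times that of other cells, was 3.85 with a limit of 3 and 4.10 with a limit of 20 Jchain UMIs, 4.68 without the deepest Jchain-high cells, 4.64 with mitochondrial, ribosomal protein, and immunoglobulin genes left out of the total, and 3.53 to 4.30 with libraries left out in turn, all in the same direction; the cause was not tested. The count of genes with a 2-fold range was 10 to 16 under other settings, beside 30.9% to 42.9% of all features. It was 26 at a limit of 1.5-fold, which 58.3% of all features also passed. In cycling cells 1 gene (Edem1) was called at 1.5-fold, beside 7.02% of all features. With libraries left out in turn, 0 to 1 gene was called (Trib3, at 2.41, without library 7), beside 4.01% to 4.60% of all features. With a library taken alone, a choice made after seeing the data, 3 (library 5) and 1 (library 6) were called, beside 6.44% and 6.46%. The genes that rose with Jchain numbered 20 to 31, beside 2.52% to 5.88% of all features. They numbered 10, beside 6.24%, when only steps between Jchain-high bins within each library were taken, also chosen after seeing the data. Over all features, the share called lower in Jchain-high cells moved from 6.75% to 14.4% without the deepest cells and to 3.21% with the other total. Depth limits Ern1 and Trib3 most, with 22 and 42 UMIs in Jchain-high cells.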

Other observations

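The libraries fell into pairs. For 7 of the 39 ER genes libraries 5 and 6 were both at least 1.5 times above libraries 7 and 8 (Dnajb9, Pdia4, Derl3, Edem1, Syvn1, Eif2ak3, and Mzb1), and for 11 genes libraries 7 and 8 were both above libraries 5 and 6 by this factor (Hspa5, Hyou1, Calr, Pdia6, P4hb, Herpud1, Ern1, Atf4, Ddit3, Trib3, and Sec61a1). No ER gene had any other pair of libraries on top by this factor. Among all 10457 features the shares were 20.3% for libraries 5 and 6 and 24.0% for libraries 7 and 8, against 17.9% and 28.2% of the ER genes, and 4 features had another pair on top. The median mitochondrial share of the cells was 7.22%, 7.18%, 4.61%, and 4.65% in libraries 5, 6, 7, and 8. Which condition either pair holds is not in the labels.

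The genes of the amino acid response also differed between libraries in cells that were neither Jchain-high nor cycling. Nupr1, a small stress-induced nuclear protein, was at 1.03, 0.447, 118, and 98.5 CPM in libraries 5, 6, 7, and 8, Phgdh, the entry enzyme of serine synthesis, at 77.5, 73.5, 472, and 473 CPM, and Slc7a5, an amino acid transporter, at 6.47, 5.19, 47.5, and 39.4 CPM. In Jchain-high cells against other cells, Nupr1 had ratios of 15.4, 21.3, 6.64, and 4.83 and Phgdh of 2.15, 1.62, 1.5004, and 1.17. Irf4, a factor of plasma cell formation, had ratios of 73.8, 48.9, 1.08, and 1.33 and Prdm1 of 16.3, 12.9, 56.3, and 55.1, so that the libraries in which each stood out from other cells were not the same.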
